A study of Mus musculus with 8 samples.

Results

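Glycolytic enzyme genes were examined in PER-M60, a mouse leukaemia cell line, grown in 2 media. They are Hk1, Hk2, Gpi1, Pfkl, Pfkp, Aldoa, Tpi1, Gapdh, Pgk1 and Pkm, 10 genes of the 21859 in the count table, taken by name and listed in pathway order. Control cultures (n = 4) received control medium, and test cultures (n = 4) received osteoclast-conditioned medium, that is, medium taken from osteoclasts, which are bone-resorbing cells. The labels name no genotype, time or passage, and they do not say whether the 8 cultures were set up on separate days. P-values therefore measure only the spread between these samples. All cultures are of 1 cell line, so the results hold for that line.

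Glycolysis breaks glucose down to pyruvate in the cytosol. Its first steps spend ATP to phosphorylate and split the sugar, and its later steps return ATP and NADH. Hexokinase, phosphofructokinase and pyruvate kinase catalyse the steps that are hard to reverse, and they exist as isozymes from separate genes. Proliferating leukaemia cells are known to use glucose heavily, and several of these genes are textbook targets of the oxygen-regulated transcription factor HIF-1.

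Most of the pathway was lower in osteoclast-conditioned medium. By the edgeR quasi-likelihood fit, 9 of the 10 passed an adjusted p of 0.05 (Benjamini-Hochberg) and all 9 fell. Among all 10729 genes tested, 30.5% were called, 14.8% as lower and 15.7% as higher. That balance depends on the scaling: with total counts only, 2012 of 3395 calls were lower, against 1584 of 3273 here. The largest falls were those of Tpi1 (log2 fold change -0.63), Aldoa (-0.49), Pgk1 (-0.46) and Pfkl (-0.46), and the smallest were those of Hk1 (-0.07) and Gpi1 (-0.08). Pfkp was the exception, with a log2 fold change of 0.04 that did not pass the test. In 8 of the genes every osteoclast-conditioned culture lay below every control culture. Among all genes tested the media did not overlap in 28.2%, and in 12.9% the conditioned cultures were the lower ones. The median log2 fold change was -0.24 over the 10 genes and -0.01 over all genes tested.

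**Figure D1:**
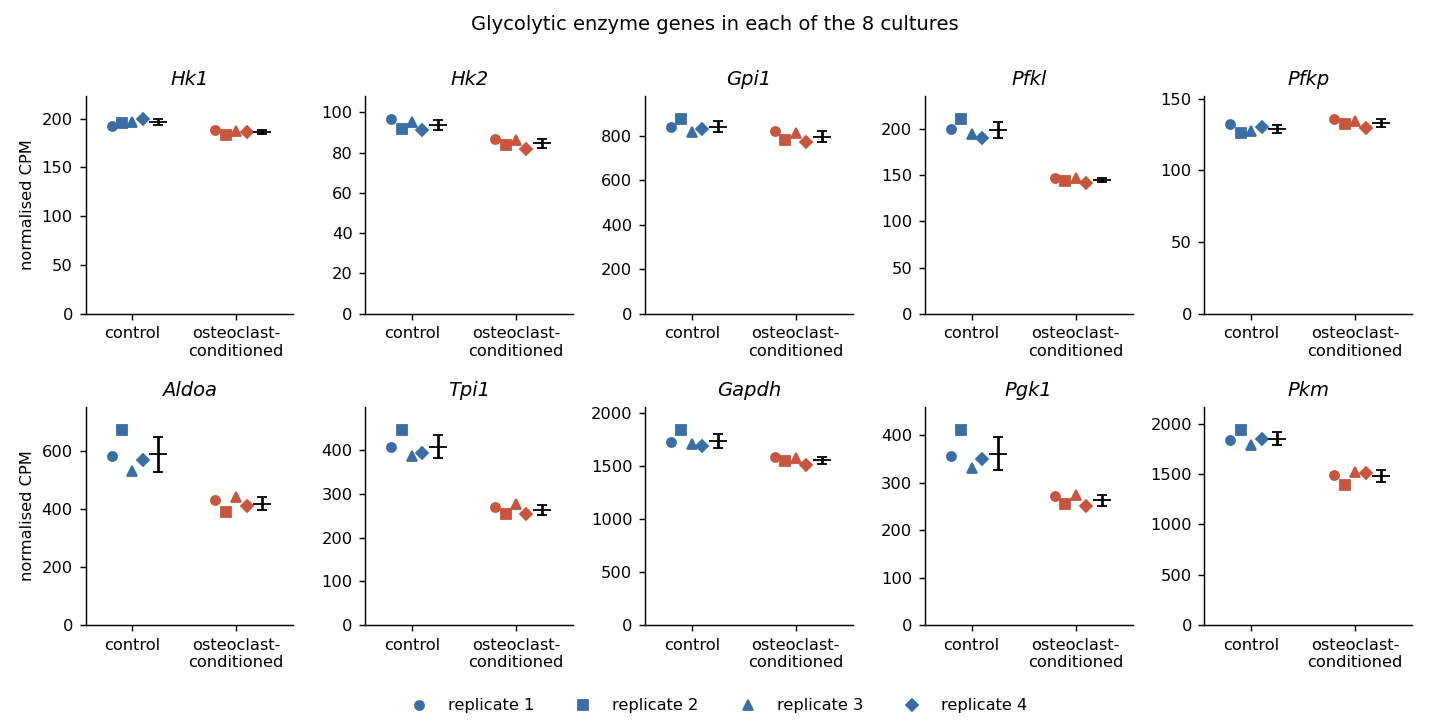
Normalised counts per 1e6 counts (CPM, vertical axis from 0) of the 10 genes in each culture of control medium (blue) and osteoclast-conditioned medium (red). Marker shape gives the replicate, and the black bar gives mean ± SD (n = 4). The media do not overlap except in Gpi1 and Pfkp.

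The cells carried the markers of B-lineage cells. Of 12 B-lineage markers, 11 had a mean of at least 1 CPM, with Pax5 highest and Rag1 at 0 counts; their summed level ran from 4491 to 4544 CPM in control medium and from 4778 to 4830 in osteoclast-conditioned medium. Of 8 T-cell markers, Lck, Cd2 and Cd5 reached 1 CPM, Cd3e had 2 counts in all, and Cd3g and Cd8a had 0 (sum 236 to 240.2 against 251 to 257 CPM). Of 15 macrophage and osteoclast markers, 4 reached a mean of 1 CPM, and Dcstamp, Ocstamp and Itgam were at 0 in every culture. The summed level of those 15 markers ran from 121 to 129.5 CPM in control medium and from 136 to 142 in osteoclast-conditioned medium, most of it from Nfatc1 and Acp5. Nfatc1 rose by 0.15 on the log2 scale, Acp5 did not pass, and Lyz2, a lysozyme of macrophages, rose from 4.46 to 5.91 CPM (log2 fold change 0.40, edgeR adjusted p = 0.0119). Of 8 stromal and osteoblast markers, Alpl and Runx2 reached 1 CPM and Col1a2 and Cxcl12 were at 0 (sum 291 to 296 against 304 to 317 CPM). The part of such cells in the results was not tested. Overlap with other genes was not examined for the markers, so 0 counts, as for Rag1, do not show that a marker is unexpressed. Total counts ran from 15391754 to 21637966 in control medium and from 16868383 to 19874229 in osteoclast-conditioned medium. A count of 3 was worth between 0.139 and 0.195 CPM, below the level of each of the 10 genes in every culture. In cultures, fewer cells of a kind and less RNA per cell cannot be told apart.

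Hexokinase traps glucose in the cell as glucose 6-phosphate, and its isozymes 1 and 2 can dock on mitochondria. Hk1 (ENSMUSG00000037012; chromosome 10, 62268855 to 62379908 in GRCm38) had 193, 196, 197 and 199.7 normalised CPM in control replicates 1 to 4, and 188, 184, 188 and 187 in conditioned replicates 1 to 4. The ranges stood apart by a small margin. The log2 fold change of Hk1 was -0.07 (SE 0.03, edgeR adjusted p = 0.0391). That call was the least firm of the 9, because it was lost in 7 of the 8 fits that each left out 1 culture, all but the one without control replicate 2 (edgeR adjusted p up to 0.132). It was also lost with the DESeq2 test (adjusted p = 0.0615), with no filter on low counts (0.0832) and with counts thinned to the smallest total (0.0722). Hk2 (ENSMUSG00000000628; chromosome 6, 82725025 to 82774454), the isozyme of muscle and of many tumours, had 96.7, 91.7, 95.2 and 91.1 in control medium and 86.5, 83.7, 86.2 and 81.6 in conditioned medium. Every conditioned culture was lower than every control, and the log2 fold change was -0.15 (SE 0.03; edgeR adjusted p = 0.00141).

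Gpi1 turns glucose 6-phosphate into fructose 6-phosphate, and the reaction runs readily both ways. The gene (ENSMUSG00000036427; chromosome 7, 34201330 to 34230336) had 841, 875, 816 and 832 normalised CPM in control medium and 821, 779, 814 and 770.1 in conditioned medium. Conditioned replicate 1 lay above control replicate 3, so the groups overlapped. The log2 fold change of Gpi1 was -0.08 (SE 0.03, edgeR adjusted p = 0.0288), and the call was lost without control replicate 1, 2 or 4 or conditioned replicate 2 or 4, each left out alone (edgeR adjusted p up to 0.11), and without control replicate 2 and conditioned replicate 4 together (0.17). Stretches of Gpi1 transcripts were near-identical to 5 other annotated genes, Wdr33 and Mrpl27 among them, so reads there are uncertain.

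Phosphofructokinase commits the sugar to glycolysis and is the main point of control by ATP and citrate. Its liver-type and platelet-type genes behaved differently here. Pfkl, the liver type (ENSMUSG00000020277; chromosome 10, 77986947 to 78010083), had 199, 211, 195 and 189.6 normalised CPM in control medium and 147, 144, 146 and 141 in conditioned medium. The gap between the media was wider than the spread within either. The log2 fold change of Pfkl was -0.46 (SE 0.03, edgeR adjusted p = 2.35e-12), the smallest p among the 10 genes. Pfkp, the platelet type (ENSMUSG00000021196; chromosome 13, 6579768 to 6648777), had 132, 126, 128 and 131 in control medium and 136, 133, 134 and 129.5 in conditioned medium. Its groups overlapped, and the log2 fold change was 0.04 (95% interval -0.02 to 0.11, edgeR adjusted p = 0.282). The interval of Pfkp thus excludes a fall of the size seen in Pfkl. Pfkp shares 748 exon bases (5.58%) with Pitrm1 on the opposite strand, which had 17720 counts in all against 18856 for Pfkp, so reads there are uncertain.

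Aldolase A, from Aldoa, splits fructose 1,6-bisphosphate into the 3-carbon sugars of the later steps. Aldoa (ENSMUSG00000030695; chromosome 7, 126795234 to 126800751) had 584, 672, 529 and 569 normalised CPM in control medium and 429.9, 390.0, 443 and 410.4 in conditioned medium. Relative to their mean, the control cultures were more scattered than for any other of the 10 genes, with an SD of 60.1 around a mean of 588 (a coefficient of variation of 10.2%, against 9.56% for Pgk1, the next), yet the lowest of them was above the highest conditioned culture. The log2 fold change of Aldoa was -0.49 (SE 0.08, edgeR adjusted p = 0.00386). Of the annotated exon bases of Aldoa, 50.6% lie inside the span of Fam57b on the opposite strand, which had 23 counts over all 8 cultures, so reads in the shared span are uncertain. The table also lists ENSMUSG00000114515 under the name Aldoa, upstream of the first, with 0 counts in every culture.

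Tpi1 encodes triosephosphate isomerase, which turns dihydroxyacetone phosphate into glyceraldehyde 3-phosphate. It lies on chromosome 6 (ENSMUSG00000023456; 124810586 to 124814296), and had 407, 446, 386 and 394 normalised CPM in control medium against 271, 254, 276 and 255 in conditioned medium. No other of the 10 genes had so wide a gap: the level of Tpi1 fell by 35.4% (log2 fold change -0.63, SE 0.04, edgeR adjusted p = 4.71e-08). Of all genes tested, 0.569% had a lower fold change than Tpi1.

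Gapdh makes 1,3-bisphosphoglycerate and NADH, and it is widely used as a reference gene. It lies on chromosome 6 (ENSMUSG00000057666; 125161715 to 125166467), and had 1723, 1838, 1706 and 1685 normalised CPM in control medium against 1586, 1544, 1574 and 1510.1 in conditioned medium. The media did not overlap, and Gapdh fell by 10.6% (log2 fold change -0.16, SE 0.03, edgeR adjusted p = 3.92e-05). A search of the annotated transcripts found 81 other genes, 77 of them pseudogenes, with a stretch of at least 100 bases that was at least 95% identical to Gapdh; only 3 of them are in the table, with 37 counts in all. Reads shared with such copies could be lost from Gapdh, so its level is uncertain, and Pgk1 (4 such pseudogenes), Tpi1 (1) and Pkm (1) had far fewer.

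Pgk1 and Pkm encode the kinases that return ATP. Pgk1, phosphoglycerate kinase (ENSMUSG00000062070; chromosome X, 106187100 to 106203699), had 356, 411, 330.2 and 350.2 normalised CPM in control medium and 272, 255, 275 and 251 in conditioned medium. All conditioned cultures were lower, and Pgk1 changed by -0.46 on the log2 scale (SE 0.07; edgeR adjusted p = 0.00229). Pkm, pyruvate kinase of muscle and most other tissues (ENSMUSG00000032294; chromosome 9, 59656368 to 59679375), had 1836, 1935, 1786 and 1847 in control medium and 1494, 1392, 1519 and 1506 in conditioned medium. It fell by 20.2% (log2 fold change -0.33, SE 0.03, edgeR adjusted p = 9.44e-10), with no overlap. The M1 and M2 forms of pyruvate kinase come from alternative exons of Pkm, and counts per gene do not separate them.

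**Figure D2:**
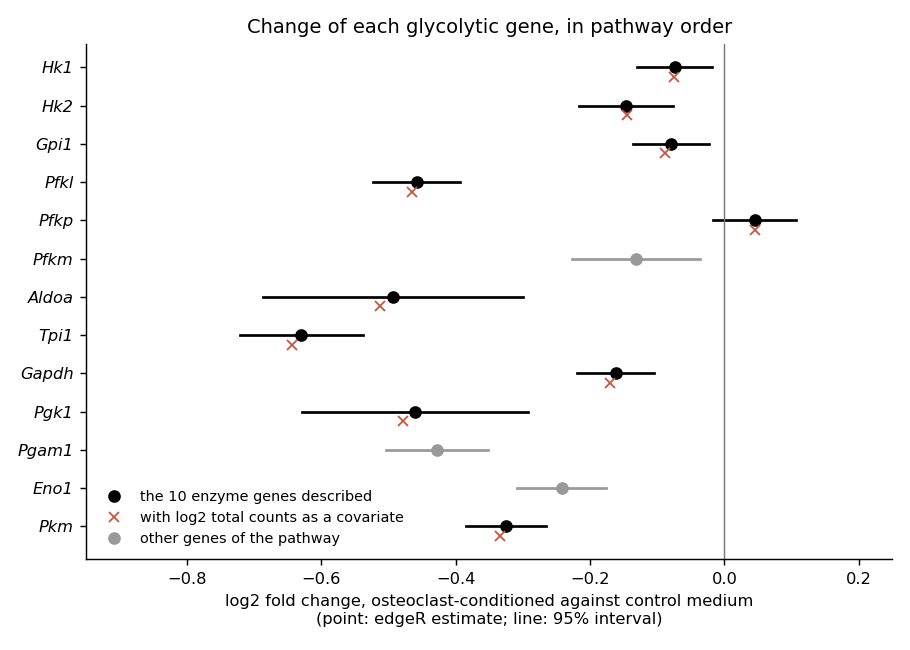
Log2 fold change (osteoclast-conditioned against control medium, horizontal axis) with its 95% interval for the 10 enzyme genes (black) and 3 other genes of the pathway (grey), in pathway order. Crosses give the estimate with log2 total counts as a covariate. Tpi1 lies farthest left at -0.63, and Pfkp is the only gene whose interval spans 0.

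Of 18 further isozymes and steps, 9 were expressed enough to test, and 3 fell, 1 rose and 5 did not pass (14.8% of all genes tested were called lower and 15.7% higher). Pgam1, the phosphoglycerate mutase of most tissues, had 91.2 ± 2.54 normalised CPM in control medium and 67.8 ± 3.09 in conditioned medium (SD, n = 4 each; log2 fold change -0.43, SE 0.04). Eno1, the main enolase, had 1890.5 ± 111 and 1599 ± 26.9 (log2 fold change -0.24, SE 0.03), and Pfkm, the muscle-type phosphofructokinase, 38.4 ± 1.03 and 35.1 ± 1.41 (-0.13, SE 0.05, edgeR adjusted p = 0.0304). Pgam2, the muscle mutase, was the one that rose, from 5.36 ± 0.297 to 6.84 ± 0.294 (log2 fold change 0.35, SE 0.10). Adpgk, Gapdhs, Bpgm, Eno1b and Eno3 had log2 fold changes from -0.13 to 0.09 and edgeR adjusted p of 0.507 or more. Hk3, Eno2 and Pklr had 2 counts or fewer over all 8 cultures and Hkdc1 had 0, too few for any difference to be seen.

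The isozyme shares were compared as each gene's part of its step's counts per kilobase of annotated exon. Whether reads in introns were counted is not given. Gene spans differ (23137 bases for Pfkl, 69010 for Pfkp and 39863 for Pfkm), so the size of each share is uncertain. In phosphofructokinase, Pfkl made up 58.1, 60.0, 57.9 and 57.8% of the step in control replicates 1 to 4, and 51.6, 50.7, 51.7 and 51.8% in conditioned replicates 1 to 4. The Pfkp share was 19.2, 17.9, 18.9 and 19.8% in control medium and 23.8, 23.3, 23.6 and 23.7% in conditioned medium, with no overlap in either gene. The difference, conditioned minus control, was -6.97 percentage points for Pfkl, 4.64 for Pfkp and 2.33 for Pfkm (two-sided exact permutation test, p = 0.0286 each, the smallest that 4 against 4 allow; adjusted p = 0.0476 over 5 shares, of which these 3 sum to 100% and are not independent). That adjusted p is under 0.05 only because all 3 are counted as separate tests. Raw counts in place of counts per kilobase gave 7.26 points for Pfkp and 0.718 for Pfkm. Summed over its isozymes, phosphofructokinase had 50.9 ± 1.47 normalised CPM per kilobase in control medium and 42.1 ± 0.841 in conditioned medium (SD, n = 4 each).

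In hexokinase, Hk2 made up 41.8, 40.1, 40.9 and 39.5% of the counts per kilobase in control medium and 39.7, 39.5, 39.6 and 38.4% in conditioned medium, with Hk1 supplying nearly all the rest. The lowest control culture lay within the conditioned range, and the difference of -1.24 points did not pass (exact permutation p = 0.0857, adjusted p = 0.107). Aldoa supplied a mean of 99.9% of the aldolase counts per kilobase in either medium, and the Aldoc share, a mean of 0.0917% in control and 0.0723% in conditioned medium, did not pass either (exact permutation p = 0.343).

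**Figure D3:**
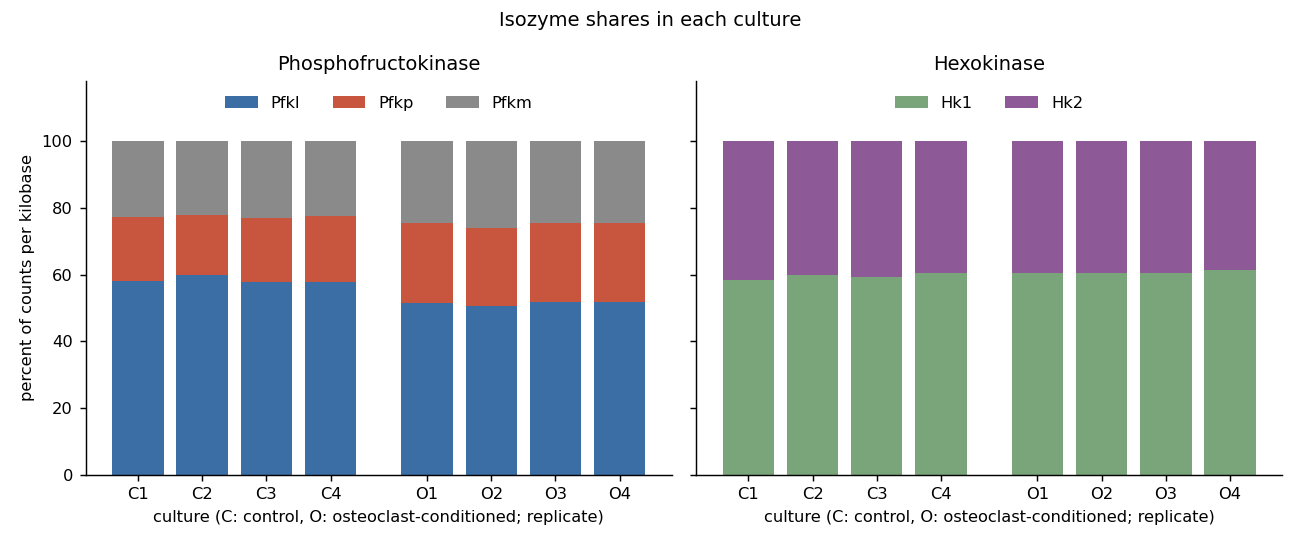
Share of each isozyme in the counts per kilobase of its step (percent, vertical axis) in each culture (C: control, O: osteoclast-conditioned, with the replicate number). The Pfkl part is between 57.8 and 60.0% in control cultures and between 50.7 and 51.8% in conditioned cultures, while the Hk2 part runs from 38.4 to 41.8% with overlap.

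Levels of different genes were compared per kilobase of annotated exon. Whether reads in introns were counted is not given. Gene spans run from 3711 bases (Tpi1) to 111054 (Hk1), so the order of genes is uncertain. In control medium Gapdh was highest at 421 ± 16.6 normalised CPM per kilobase (SD, n = 4), followed by Pkm at 370.1 ± 12.4, Aldoa at 202 ± 20.7, Pgk1 at 161 ± 15.4, Tpi1 at 148 ± 9.60 and Gpi1 at 130.4 ± 3.88. The ranges of Pgk1 and Tpi1 overlapped, and Aldoa with its lowest culture at 182 overlapped Pgk1 at its highest, 183. Pfkl (29.7), Hk1 (23.0), Hk2 (15.7) and Pfkp (9.63) followed far below. In conditioned medium Gapdh, Pkm and Aldoa kept the first places, at 376, 295 and 144, while Gpi1 (123 ± 3.88) lay above Pgk1 (117 ± 5.29) and Tpi1 (95.9 ± 4.13). Pgk1 and Gpi1 overlapped there, and Hk1 at 21.8 and Pfkl at 21.7 did not differ beyond their spread. If only the exon bases of Aldoa outside Fam57b gave counts, its control level would be 409 and lie above Pkm, so its place in the order is uncertain. The order also depends on the length used. Per kilobase of the longest transcript, Pkm (761) lay above Gapdh (528) in control medium, and Gpi1 (263) already lay above Tpi1 (254) and Pgk1 (198) there, so its place was the same in both media.

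Together the 10 genes took 0.645, 0.681, 0.619 and 0.635% of all counts in control replicates 1 to 4, and 0.537, 0.511, 0.541 and 0.523% in conditioned replicates 1 to 4. The mean was 0.645 ± 0.0265% against 0.528 ± 0.0139% (SD, n = 4 each), with every conditioned culture below every control. No test was made on this sum, because its members were chosen with earlier results of these data known.

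Taken over all 8 cultures as deviations from the mean of each medium, 7 of the 10 genes moved together. Control replicate 2 was the highest control culture for Gpi1, Pfkl, Aldoa, Tpi1, Gapdh, Pgk1 and Pkm, and it also had the largest total count, 21637966. In conditioned medium, all of the 10 genes except Pkm were higher in replicates 1 and 3, with totals of 19874229 and 18781407, than in replicates 2 and 4, with 16868383 and 17178702. That includes Hk1, Hk2 and Pfkp. Pkm had 1494, 1392, 1519 and 1506 normalised CPM in conditioned replicates 1 to 4. For the 7 genes highest in control replicate 2, the deviations from the mean of each medium correlated with the mean of the other 9 genes at r from 0.722 (Pkm) to 0.993 (Tpi1) over the 8 cultures. For Hk1, Hk2 and Pfkp, r was 0.016, 0.083 and 0.025. Each r pools both media, so this split of the genes does not hold in conditioned medium alone. These r values are descriptions, and the cultures share their medium and scaling.

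**Figure D4:**
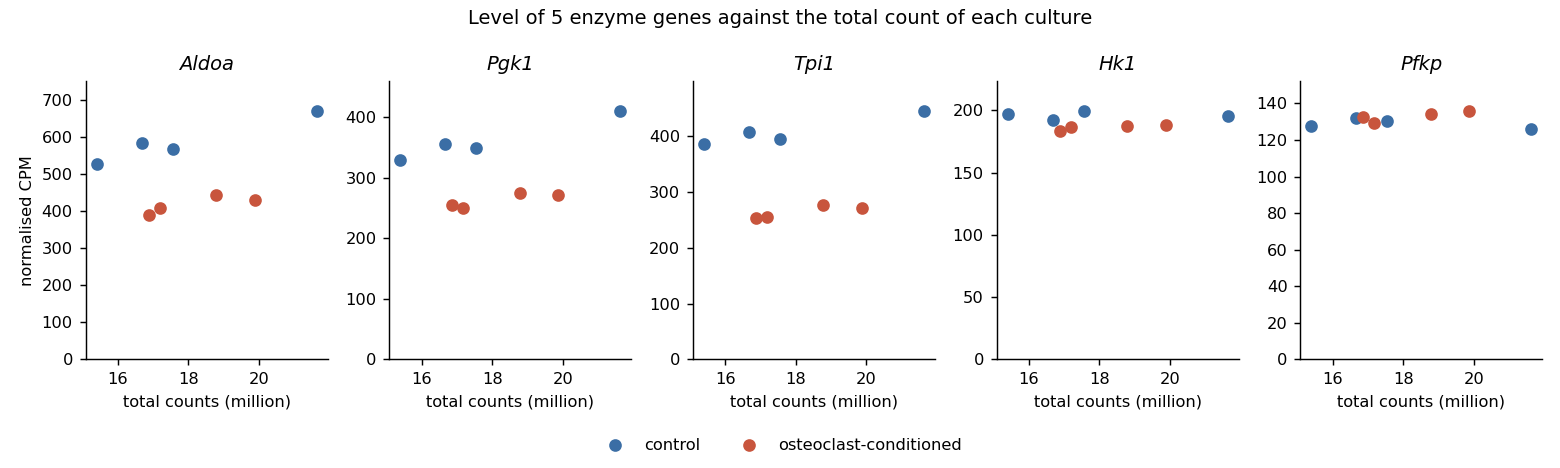
Normalised CPM (vertical axis from 0) of 5 enzyme genes against the total count of each culture (horizontal axis), blue for control and red for osteoclast-conditioned medium. Aldoa, Pgk1 and Tpi1 are highest in the control culture with the largest total, and in these 3 genes every red point lies below every blue one. No control culture has a total between 17553526 and 21637966, so the media cannot be compared at every total. Hk1 and Pfkp are not highest in that control culture, and the media overlap in Pfkp.

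Control replicate 4 and conditioned replicate 4 had totals of 17553526 and 17178702, and their levels were 569 and 410.4 normalised CPM for Aldoa, 350.2 and 251 for Pgk1, and 394 and 255 for Tpi1. With log2 total counts as a covariate, a fit added after seeing the data, the log2 fold changes were -0.51 (SE 0.03) for Aldoa, -0.48 (SE 0.03) for Pgk1 and -0.64 (SE 0.03) for Tpi1. The SE of Aldoa was 0.08 without the covariate. Without control replicate 2 the log2 fold changes were -0.42, -0.39 and -0.58. What the total count stands for in these cultures was not tested.

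Outside the 10, among tested genes whose mean was 5 CPM or more, Ldha followed their mean level most closely across the 8 cultures (r = 0.996). Glul (0.989), Pgp (0.989), Ehd2 (0.987) and Ucp2 (0.984) came next, and their log2 fold changes ran from -0.31 to -0.19. Ldha, lactate dehydrogenase A, turns pyruvate into lactate, and it had 1491 ± 100.3 normalised CPM in control medium and 1143 ± 40.8 in conditioned medium (log2 fold change -0.38, SE 0.04). When only the deviations from the mean of each medium were compared, Wdr82 (r = 0.968), Ldha (0.966), Zbtb33 (0.965), Usp22 (0.964) and Acsl5 (0.963) were closest. Of these 5 only Ldha passed the test between media (edgeR adjusted p of the other 4 at least 0.0638, that of Acsl5 at a log2 fold change of 0.12). Genes were ranked over 9022 candidates, and r is given as a description.

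Promoter sequence was read for the 4 genes that fell most and for Pfkp, since these genes moved apart. The sequences are the 250 bases upstream of a RefSeq start (GRCm38.p6), 5′ to 3′ along the gene's strand, with ACGTG and GCGTG in capitals on either strand (CACGT and CACGC on the other); these are the core letters that HIF-1 is known to bind. They are Tpi1 at chr6:124814159-124814408, minus strand, Aldoa at chr7:126799255-126799504, minus strand (the second of 3 listed starts, shown because it holds the letters searched, as the third does and the first does not), Pgk1 at chrX:106186850-106187099, plus strand, Pfkl at chr10:78009808-78010057, minus strand, and Pfkp at chr13:6648772-6649021, minus strand.
Tpi1: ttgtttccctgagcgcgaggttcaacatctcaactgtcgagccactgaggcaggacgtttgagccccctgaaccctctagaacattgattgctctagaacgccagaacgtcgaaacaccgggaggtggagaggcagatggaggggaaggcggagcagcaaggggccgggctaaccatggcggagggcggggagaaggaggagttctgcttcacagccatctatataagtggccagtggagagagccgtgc
Aldoa: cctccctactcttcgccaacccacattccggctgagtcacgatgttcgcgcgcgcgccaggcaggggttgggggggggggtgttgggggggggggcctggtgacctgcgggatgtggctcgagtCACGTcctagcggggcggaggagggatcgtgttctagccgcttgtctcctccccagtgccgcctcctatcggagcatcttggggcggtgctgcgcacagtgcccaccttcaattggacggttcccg
Pgk1: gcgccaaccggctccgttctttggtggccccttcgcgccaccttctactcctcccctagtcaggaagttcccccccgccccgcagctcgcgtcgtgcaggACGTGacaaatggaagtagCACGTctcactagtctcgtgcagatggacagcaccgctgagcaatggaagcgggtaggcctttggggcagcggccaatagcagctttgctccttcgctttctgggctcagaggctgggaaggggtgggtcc
Pfkl: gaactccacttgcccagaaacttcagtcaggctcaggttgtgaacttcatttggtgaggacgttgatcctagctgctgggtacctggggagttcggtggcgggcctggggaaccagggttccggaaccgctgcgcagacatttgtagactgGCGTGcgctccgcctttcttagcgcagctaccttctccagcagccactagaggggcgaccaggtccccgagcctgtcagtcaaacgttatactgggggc
Pfkp: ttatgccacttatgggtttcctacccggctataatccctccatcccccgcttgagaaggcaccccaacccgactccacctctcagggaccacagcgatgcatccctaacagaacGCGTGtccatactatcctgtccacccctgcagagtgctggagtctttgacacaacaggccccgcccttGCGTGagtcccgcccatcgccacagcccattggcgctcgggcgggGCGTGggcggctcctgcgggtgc
ACGTG was present 150 and 131 bases upstream of the Pgk1 start and 126 bases upstream of that Aldoa start, and GCGTG once in Pfkl and 3 times in Pfkp. Neither was found in the windows of Tpi1 or Gpi1. Over all starts listed for the 10 genes, 4 genes (Hk2, Aldoa, Pgk1 and Pkm) held ACGTG and 4 (Hk1, Pfkl, Pfkp and Gapdh) held GCGTG. Among the 8547 tested genes with a listed promoter, 25.8% held ACGTG and 51.0% GCGTG; base composition was not matched. The letters are a description of the window, and binding was not measured.

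Genes around the pathway were read from further lists, in which single genes are named by size of change. Over all genes tested, 14.8% were called lower and 15.7% higher. In transport and pyruvate fate, 7 of 12 tested genes fell and 1 rose (median log2 fold change -0.14). Its largest changes were those of Slc16a3, the lactate exporter MCT4 (53.0 ± 3.65 against 32.0 ± 2.41 normalised CPM, log2 fold change -0.73), Ldha (-0.38) and Slc2a1, the glucose transporter GLUT1 (-0.36). Of the HIF regulators and non-glycolytic targets, 7 of 20 fell and 1 rose (median -0.08), led by the mitophagy receptors Bnip3 (-0.55) and Bnip3l (-0.32) and the oxygen sensor Egln3 (-0.54). Vegfa, the vascular growth factor, was the one that rose (199 ± 7.25 against 218 ± 11.1 normalised CPM, log2 fold change 0.13, SE 0.03). Hif1a did not pass at 0.07 (SE 0.04; edgeR adjusted p = 0.177), and 60.9% of its exon bases lie inside another listed gene. Vegfa and Hif1a are named after their values were seen.

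Of the regulators of phosphofructokinase and the reverse steps, 4 of 9 tested genes rose, 0 fell and 5 did not pass (median 0.05). The shares over all genes tested were 15.7% higher and 14.8% lower. Pck2, the mitochondrial phosphoenolpyruvate carboxykinase, rose from 276 ± 4.47 to 335 ± 2.34 normalised CPM (log2 fold change 0.28, SE 0.03). Fbp1, which reverses the phosphofructokinase step, rose by 0.18 and Pcx, pyruvate carboxylase, by 0.16 on the log2 scale; the fourth, Pfkfb3, which makes an activator of phosphofructokinase, rose by 0.15 and is named after its value was seen. In the branches, Phgdh (0.24) and Psph (0.25) of serine synthesis rose while Mpi (-0.35), which leads to mannose, fell, with 3 of 11 tested genes higher and 3 lower (median -0.02). Psph shares 452 exon bases (10.4%) with Cct6a on the opposite strand, which had 103582 counts in all against 13574 for Psph, so reads there are uncertain.

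The pentose phosphate pathway, which shares sugar phosphates with glycolysis, had 3 of 7 tested genes lower and 0 higher (median -0.02). Pgd (-0.19), Rpia (-0.16) and Taldo1 (-0.14) fell. G6pdx had 0 counts, and its whole span lies inside that of Ikbkg. In the citric acid cycle 5 of 15 fell and 0 rose (median -0.05), the largest being Idh3a (-0.14), Sdhd (-0.13) and Suclg1 (-0.11). Over all genes tested, 14.8% were called lower and 15.7% higher.

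**Figure D5:**
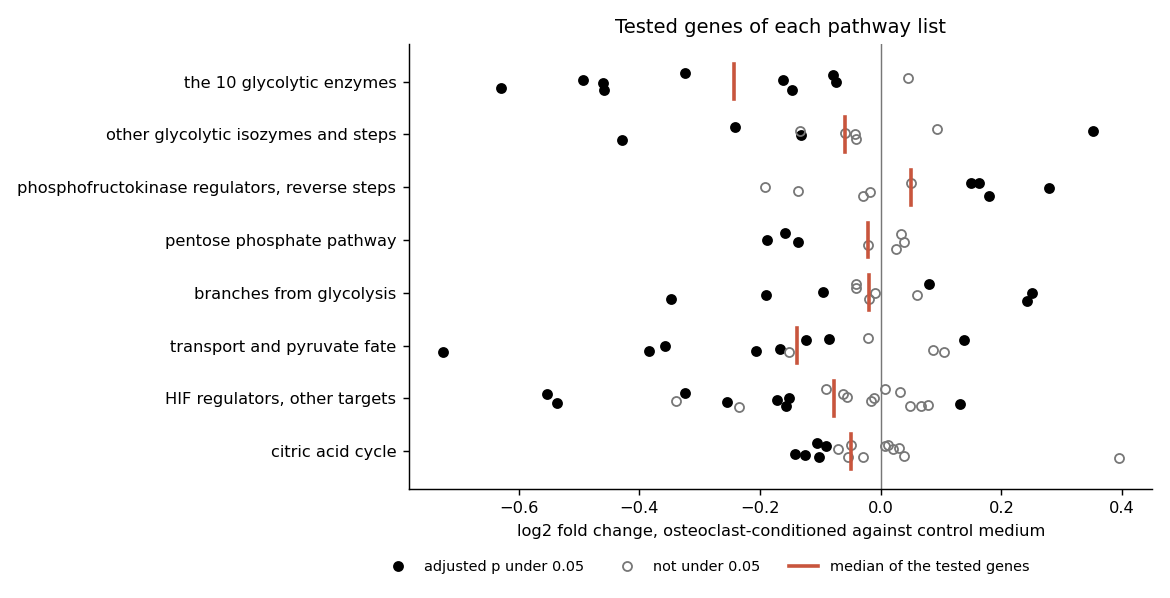
Log2 fold change (osteoclast-conditioned against control medium, horizontal axis) of each tested gene in 8 lists, filled where the edgeR adjusted p is under 0.05, with the list median as a red bar. The 10 glycolytic enzymes have the lowest median, -0.24, and the regulators and reverse steps the highest, 0.05.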

How the data were processed

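RNA sequencing counts were analysed from 8 cultures. The deposited values are whole-number counts per Ensembl gene ID, and no normalisation by the authors is recorded. STAR 2.7.5a, featureCounts 2.0.1 and mm10 are named in the submitters' processing notes. The annotation, use of strand and treatment of multi-mapping reads or barcodes are not given in the sources used here. Of 502 genes lying inside another listed gene without sharing an exon, 501 had 0 counts, so counts of overlapping genes are uncertain. Reads may have been counted over whole gene spans, introns included, which the sources used here do not settle.

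IDs were named from GENCODE M21 (GRCm38), and promoters came from RefSeq (GRCm38.p6; 10 of the 10 genes matched). The test was that of edgeR 4.0.16 (R 4.3.3; filterByExpr, TMM, robust glmQLFit, glmQLFTest, medium as the term), with Benjamini-Hochberg adjustment over 10729 genes and a threshold of 0.05. SE is the absolute log2 fold change divided by the square root of F. Log2 CPM used a prior count of 2. Shares were tested with exact permutation over 70 assignments (scipy 1.17.1). Copies were sought with BLAST 2.17.0. The fit and the permutation test were tested on simulated data. The 10 genes and the lists were chosen with earlier results of these data known. Outside the 10 genes, further glycolytic genes at a mean of 1 CPM or more were named, and in each other list up to 3 called genes with the largest change and a mean of 5 CPM or more. Alternatives were other scalings, filters and thresholds, DESeq2 1.42.0, limma-voom (limma 3.58.1), thinned counts, the replicate block and leaving out each culture. Library depth and a pair of outlying cultures were added as alternatives after seeing the data. The smallest total was 15391754.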

Additional observations from a re-analysis of the deposited data

Results flagged for a closer look

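The 10 genes, the 5 isozyme shares and the summed share of counts were searched for a culture far from the other 3 of its medium. In 3 of 32 groups the gap to the nearest culture, as a part of the range, was above Dixon's 95% critical value, where chance alone gives about 1.6 groups. Hk2 made up 38.4% of hexokinase in osteoclast-conditioned replicate 4 and between 39.5 and 39.7% in the other conditioned cultures. In osteoclast-conditioned replicate 2, Pfkl made up 50.7% of phosphofructokinase against 51.6 to 51.8%, and Pfkm 26.0% against 24.5 to 24.7%. The last 2 come from the same culture and the same sum, so they are not separate cases.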

How the results depend on the processing

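No fold change of the 10 genes changed sign under the 25 alternatives run. Against a change of 1.2-fold, 2 of the 10 genes were called, both lower (Pfkl and Tpi1), and 4 genes of the 7 other lists, 4 lower and 0 higher, against 38 (28 lower, 10 higher) in the reported fit; over all genes, 227 of 10729 were called at that setting, 66 of them lower, and a stricter test calls fewer genes by construction. Leaving out 1 culture gave 7 or 8 of the 10 genes and 34 to 38 of the lists' genes. Over all genes, those fits called from 2635 of 10784 (without conditioned replicate 3) to 3578 of 10797 (without control replicate 2). With total counts only, the log2 fold changes of the 10 genes ran from -0.65 (Tpi1) to 0.02 (Pfkp). The replicate block called 9 of the 10 genes, the same number, and 40 of the lists' genes, with 3446 of 10729 called over all genes. Deviations of same-numbered cultures correlated at -0.029, 0.086, -0.051 and 0.143, and 3 of 8 cultures correlated best with their own number, so the numbers were not taken as pairs. As a block over pairs, the shares kept their values (Pfkl -6.97, Pfkp 4.64, Pfkm 2.33 points), with an adjusted exact p of 0.156, since 4 pairs cannot go below 0.125. Leaving out 1 culture gave -7.20 to -6.47 points for Pfkl, 4.28 to 4.93 for Pfkp and 1.98 to 2.51 for Pfkm; adjusted exact p was 0.0714 or 0.0952, as 3 against 4 cannot go below 0.0571. The Hk1 call was lost in 13 of the 25 alternatives and the Gpi1 call in 8, a threshold of 0.01 and the 1.2-fold test among them. With counts thinned to the smallest total, edgeR adjusted p was 0.0722 for Hk1 and 0.0405 for Gpi1.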
